A study of Homo sapiens with 12 samples.

Results

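The genes described here belong to 4 small groups of immediate early genes: EGR1, EGR2, EGR3 and EGR4, IER2, IER3 and IER5, MYC, and ZFP36 and ZFP36L1. Their 10 symbols were looked up in the platform annotation of the expression array, and each gene was read from its brightest probe set over the 12 arrays. A probe set is the group of array probes that measure one gene or transcript. Of the 10 genes, 9 had a probe set, out of 18417 symbols with a probe set of their own in the whole table, and EGR2 is not analysed here. The cells were T47D-MTVL, a human breast cancer line derived from T47D that expresses the progesterone receptor and carries 1 integrated copy of the mouse mammary tumour virus (MMTV) promoter driving luciferase. They had been transfected with an siRNA against the chromatin remodeler CHD8 (siCHD8) or with a control siRNA (siCt). All cells were kept without serum for 48 h before stimulation. Cells then received 10 nM R5020, a synthetic progestin, or its ethanol vehicle (EtOH) for 6 h, which gives the conditions siCHD8 R5020, siCHD8 EtOH, siCt R5020 and siCt EtOH with 3 arrays each. The sample labels name the 3 arrays of a condition as biological replicates but do not say whether they came from separate cultures, so p-values measure the spread among these samples. The comparisons ask how progestin moves these genes in each kind of cell, and how CHD8 depletion moves them.

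Immediate early genes are those whose transcription starts within minutes of a growth factor or stress signal, without new protein synthesis, and whose mRNA is usually short-lived. The classical route runs through the ERK kinases to ELK1 and the serum response factor SRF: SRF binds the CArG box in promoters such as that of EGR1, and ELK1 an ETS site beside it. EGR proteins are zinc finger transcription factors that bind the GC-rich motif GCGNGGGCG, and NAB1 and NAB2 are their corepressors. MYC pairs with MAX to drive genes of ribosome and nucleotide synthesis. ZFP36 (tristetraprolin) and its relatives ZFP36L1 and ZFP36L2 bind AU-rich elements in mRNAs and speed their decay, including that of other early transcripts. Progesterone receptor acts directly on chromatin, and a small fraction of it near the cell membrane can switch on ERK signalling.

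RefSeq start sites (assembly GRCh38.p14) were given for 7 of the 10 genes, with 10 starts in all, and the 250 bases before each start were searched on both strands. The promoters of EGR1, EGR4, IER2 and ZFP36 are shown because EGR1, IER2 and ZFP36 were called with R5020 in at least 1 kind of cell and EGR4 had the most negative difference in siCt cells. Capitals mark matches to the CArG box, the EGR motif GCGNGGGCG, the GC box GGGCGG, the ETS motif CCGGAA, the E-box CACGTG, the cyclic AMP response element TGACGTCA, or AGAACA, the half-site of the progestin response element.
EGR1 promoter, chr5:138465229-138465478, plus strand: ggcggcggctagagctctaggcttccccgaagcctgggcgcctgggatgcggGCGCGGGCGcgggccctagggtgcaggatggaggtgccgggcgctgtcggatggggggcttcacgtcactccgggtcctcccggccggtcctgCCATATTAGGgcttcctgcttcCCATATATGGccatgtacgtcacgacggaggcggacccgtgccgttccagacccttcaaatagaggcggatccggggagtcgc
EGR4 promoter, chr2:73293549-73293798, minus strand: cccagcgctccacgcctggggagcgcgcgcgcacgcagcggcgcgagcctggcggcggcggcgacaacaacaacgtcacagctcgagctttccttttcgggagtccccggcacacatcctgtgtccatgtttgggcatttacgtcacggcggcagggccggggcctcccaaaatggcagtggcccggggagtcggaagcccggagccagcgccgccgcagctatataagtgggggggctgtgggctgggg
IER2 promoter, chr19:13150161-13150410, plus strand: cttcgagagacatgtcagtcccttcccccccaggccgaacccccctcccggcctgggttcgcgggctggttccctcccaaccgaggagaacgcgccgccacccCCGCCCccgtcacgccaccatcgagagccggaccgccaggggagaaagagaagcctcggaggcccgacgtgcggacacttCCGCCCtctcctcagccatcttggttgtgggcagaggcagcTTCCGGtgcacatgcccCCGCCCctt
ZFP36 promoter, chr19:39406597-39406846, plus strand: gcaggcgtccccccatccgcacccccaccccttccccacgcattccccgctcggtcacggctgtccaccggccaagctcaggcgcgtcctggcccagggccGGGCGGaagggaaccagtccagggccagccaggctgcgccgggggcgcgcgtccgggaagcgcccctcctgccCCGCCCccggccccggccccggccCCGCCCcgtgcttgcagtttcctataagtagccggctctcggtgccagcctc
EGR1 held 2 CArG boxes, at 105 to 96 and 83 to 74 bases before the start, and 1 EGR motif at 198 to 190 bases. A CArG box was present in 1.16% of the 35116 promoter windows of the table and an EGR motif in 8.41%. ZFP36 and IER2 held 3 GC boxes each, a motif of 42.6% of windows, and IER2 also an ETS motif, which 14.5% of windows hold. The EGR4 window held none of these motifs. Among the promoters not shown, IER5 held an ETS motif at 74 to 69 bases before its start. Of 3 EGR2 starts, 1 held a CArG box, 2 held GC boxes and 1 of those 2 an E-box (6.34% of windows), and 1 of 2 ZFP36L1 starts held the cyclic AMP response element (1.65% of windows). The half-site AGAACA, found in 12.4% of windows, was in none of the 7 genes' windows, which says only that these letters are not within 250 bases of the start.

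The arrays had median log2 intensities of 4.52 to 4.62. Replicates of a condition correlated at r = 0.989 to 0.996 and arrays of different conditions at 0.976 to 0.994 across probe sets, which are not independent. The array siCt EtOH replicate 3 stood apart, with 1099 of 21214 probe sets over 0.5 on the log2 scale above or below both of its replicates, against 146 to 747 on the other 11 arrays. Without it 11.1% of probe sets were called for R5020 in siCt cells, and the 9 early genes again gave 2 higher and 1 lower call there: ZFP36 (0.81), MYC (0.41, adjusted p = 0.0398) and EGR1 (-0.51, adjusted p = 0.0415). CHD8, the target of the siRNA, averaged 4.73 in siCHD8 R5020 cells and 5.35 in siCt R5020 cells, and 5.19 in siCHD8 EtOH cells and 5.77 in siCt EtOH cells. Its signal over both treatments was 66.1% of that in siCt cells (limma, log2 difference -0.60, SE 0.09, adjusted p = 0.00403). It was also lower with R5020, by a log2 difference of -0.42 in siCt cells (limma, adjusted p = 0.0349) and of -0.46 in siCHD8 cells (adjusted p = 0.0258), and each of these calls was lost when any of 4 single arrays was left out (siCt R5020 replicate 2 or 3 or EtOH replicate 1 or 3, adjusted p up to 0.119; siCHD8 R5020 replicate 1, 2 or 3 or EtOH replicate 1, up to 0.116). All 10 luminal breast markers lay above 4.59, the median level of the probe sets tested, against 1 of 8 fibroblast and 0 of 8 blood and endothelial markers. The mean level of the luminal markers was 9.17 to 9.22 with R5020 and 9.64 to 9.81 with EtOH in siCHD8 cells, and 9.25 to 9.31 with R5020 and 9.74 to 9.90 with EtOH in siCt cells. Of them, 6 in siCHD8 cells and 5 in siCt cells were called lower with R5020. The share of all probe sets called lower was 5.43% in siCHD8 cells and 6% in siCt cells. The fibroblast marker COL1A1 was also called lower in siCt cells (-0.39, limma adjusted p = 0.0319), a call lost without any of 4 single arrays. For siCHD8 against siCt over both treatments, 1 of the 10 luminal markers was called lower and 0 higher. It was PGR, the progesterone receptor gene (-0.33, limma adjusted p = 0.0464), a call lost without any of 10 single arrays (0.0658 to 0.126). Of all probe sets 1.39% were called lower there and 0.372% higher. The part of these changes in the differences of the early genes was not tested. Bulk RNA cannot tell fewer expressing cells from less RNA per cell.

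R5020 raised ZFP36 and MYC in both kinds of cell. EGR1 was lower with R5020 in siCt cells, and IER2 was lower in siCHD8 cells. The other genes did not pass an adjusted p of 0.05 (limma over 21214 probe sets). In siCt cells 2 of 9 genes were called higher and 1 lower, where 14.1% of all probe sets were called, 8.1% higher and 6% lower. In siCHD8 cells the counts were again 2 higher and 1 lower, where 11.5% of all probe sets were called, 6.04% higher and 5.43% lower. Without regard to a test, the 3 R5020 arrays lay clear of the 3 EtOH arrays for 8 of 9 genes in siCt cells, 3 higher and 5 lower, against 33.9% of all probe sets (15.3% higher and 18.7% lower). In siCHD8 cells that held for 3 of 9 genes, all higher, against 27.2% of all probe sets (13% higher and 14.2% lower). At stricter limits (fold over 1.5, adjusted p under 0.01), ZFP36 was the 1 gene called in each kind of cell, where 5.6% of all probe sets were called in siCHD8 cells and 6.55% in siCt cells. The median log2 difference of the 9 genes was 0.09 in siCHD8 cells and -0.27 in siCt cells, and that of all probe sets tested was -0.02 in siCHD8 cells and -0.05 in siCt cells.

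**Figure D1:**
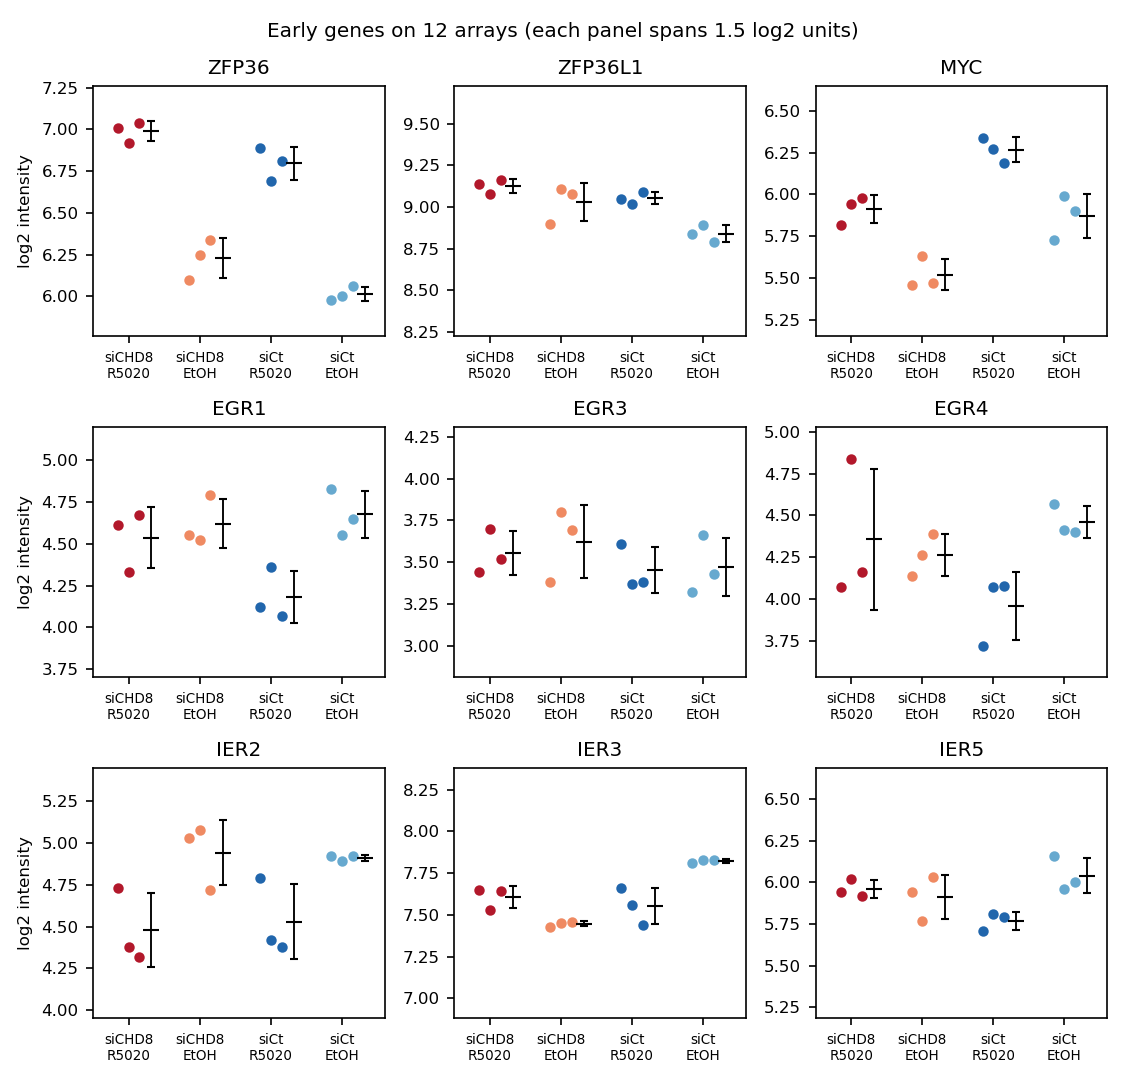
Log2 intensity (vertical axis) of the 9 early genes on each of the 12 arrays, by condition (horizontal axis); points are single arrays, and the line with bars is the mean with SD over 3 arrays. ZFP36 lies between 6.69 and 7.04 with R5020 and between 5.98 and 6.34 with EtOH, MYC is lowest in siCHD8 EtOH cells, and the R5020 arrays of EGR1 in siCt cells lie below all others except 1 in siCHD8 R5020 cells.

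ZFP36, at chr19:39406847-39409407, rose with R5020 in both kinds of cell. Its log2 intensity was 7.01, 6.92 and 7.04 in siCHD8 R5020 cells, against 6.10, 6.25 and 6.34 in siCHD8 EtOH cells. In siCt cells it was 6.89, 6.69 and 6.81 with R5020, against 5.98, 6.00 and 6.06 with EtOH. Every R5020 array thus lay above every EtOH array, in either kind of cell. The log2 difference was 0.76 in siCHD8 cells (SE 0.10, 1.69-fold, limma adjusted p = 0.000115) and 0.78 in siCt cells (SE 0.10, 1.72-fold, adjusted p = 7.11e-05). These passed the threshold under all 21 alternatives run for each kind of cell.

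ZFP36L1, a second AU-rich element binding protein (chr14:68787655-68796243), moved much less. It had 9.14, 9.08 and 9.16 in siCHD8 R5020 cells and 8.90, 9.11 and 9.08 in siCHD8 EtOH cells, and these arrays overlapped. In siCt cells it had 9.05, 9.02 and 9.09 with R5020 and 8.84, 8.89 and 8.79 with EtOH. The siCt arrays did not overlap, but the log2 difference of 0.21 (SE 0.10, limma adjusted p = 0.17) did not pass the test, nor did that of 0.10 in siCHD8 cells (adjusted p = 0.643). ZFP36L2, the third family member, went the opposite way. It had 7.10, 6.89 and 6.87 in siCHD8 R5020 cells, against 8.31, 8.31 and 8.32 in siCHD8 EtOH cells. With the control siRNA it had 6.99, 7.00 and 7.04 with R5020, against 8.69, 8.70 and 8.82 with EtOH. ZFP36L2 signal with R5020 was thus 38.8% of that with EtOH in siCHD8 cells (log2 difference -1.37, limma adjusted p = 2.15e-07) and 30.2% in siCt cells (-1.73, adjusted p = 1.77e-08). The 3 relatives therefore differed in direction on the same arrays: ZFP36 higher, ZFP36L2 lower, and ZFP36L1 not called.

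**Figure D2:**
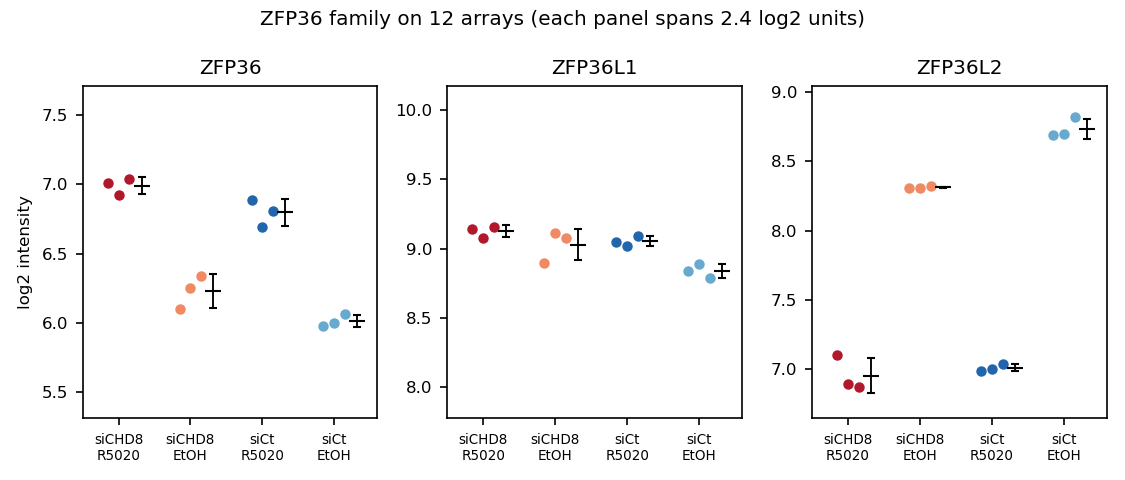
Log2 intensity (vertical axis, 2.4 units in each panel) of the 3 ZFP36 family genes on the 12 arrays by condition; points are arrays, and lines with bars are means with SD over 3 arrays. With R5020, ZFP36 stands higher and ZFP36L2 lower than with EtOH in both kinds of cell, while ZFP36L1 stays between 8.79 and 9.16.

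Among 12 other factors of AU-rich element decay, ZFP36L2 included, 1 was called higher and 2 lower in siCHD8 cells, and 2 higher and 1 lower in siCt cells. The share of all probe sets called was 11.5% in siCHD8 cells and 14.1% in siCt cells. This list and those below were chosen with earlier results of these data known, so their counts are descriptions. CNOT8, a deadenylase subunit of the CCR4-NOT complex, rose by a log2 difference of 0.63 in siCHD8 cells (limma adjusted p = 0.0173) and 0.66 in siCt cells (adjusted p = 0.0105). MAPKAPK2, the kinase that phosphorylates ZFP36, differed by 0.41 in siCHD8 cells (adjusted p = 0.0757) and rose by 0.48 in siCt cells (adjusted p = 0.0312). CNOT1, the scaffold of the same complex, was lower in siCHD8 cells by a log2 difference of -0.34 (adjusted p = 0.0314) and differed by -0.22 in siCt cells (adjusted p = 0.152). The CNOT8 call was lost without siCHD8 EtOH replicate 3 (0.44, adjusted p = 0.0716) or siCHD8 R5020 replicate 1 (0.0601) or 2 (0.0678) in siCHD8 cells, and without EtOH replicate 3 in siCt cells (0.51, adjusted p = 0.0542). That of MAPKAPK2 was lost without any siCt R5020 replicate or siCt EtOH replicate 1 or 2 (adjusted p from 0.0639 to 0.125), and that of CNOT1 without any siCHD8 R5020 replicate or siCHD8 EtOH replicate 1 or 2 (0.0633 to 0.139). The median of the list was -0.06 in siCHD8 cells and 0.08 in siCt cells.

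MYC, on chromosome 8, was the other gene of the 9 that rose. Its log2 intensity was 5.82, 5.94 and 5.98 in siCHD8 R5020 cells, against 5.46, 5.63 and 5.47 in siCHD8 EtOH cells. In siCt cells the values were 6.34, 6.27 and 6.19 with R5020, against 5.73, 5.99 and 5.90 with EtOH. The R5020 arrays lay above the EtOH arrays in both kinds of cell, and the siCHD8 R5020 arrays lay at the level of the siCt EtOH arrays. The hormone difference was 0.39 on the log2 scale in siCHD8 cells (SE 0.11, 1.31-fold, limma adjusted p = 0.0255) and 0.39 in siCt cells (SE 0.11, 1.31-fold, adjusted p = 0.0227). Its call was lost when some single arrays were left out. In siCHD8 cells this was the case without R5020 replicate 2 (adjusted p = 0.0918) or 3 (0.107) or EtOH replicate 1 (0.0672) or 3 (0.0659), and in siCt cells without R5020 replicate 1 (0.0945) or 2 (0.064) or EtOH replicate 1 (0.1).

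Of 16 measured genes from a list of 18 that MYC is known to induce, 5 were called higher and 0 lower in siCHD8 cells, and 8 higher and 0 lower in siCt cells. Over all probe sets, 6.04% were called higher in siCHD8 cells and 8.1% in siCt cells. All 16 genes lay above 4.59, the median level of the probe sets tested, and a share among probe sets of like level is not given here. The median log2 difference of the 16 genes was 0.20 in siCHD8 cells and 0.43 in siCt cells. Because the list was chosen with earlier results of these data known, an excess over the share of all probe sets is not evidence about MYC targets. SRM, the spermidine synthase gene, rose by 1.30 in siCHD8 cells (limma adjusted p = 5.99e-07) and 1.13 in siCt cells (adjusted p = 2.3e-06). LDHA, a lactate dehydrogenase subunit, rose by 0.86 in siCHD8 cells (adjusted p = 0.00939) and 1.06 in siCt cells (adjusted p = 0.00179). The siCt EtOH arrays of LDHA had 9.72, 9.70 and 8.74, so replicate 3 widened its siCt difference. NOP16, a nucleolar protein gene, rose by 0.56 in siCHD8 cells (adjusted p = 0.00914) and 0.46 in siCt cells (adjusted p = 0.0262). RRP9, which acts in ribosomal RNA processing, differed by 0.14 in siCHD8 cells (adjusted p = 0.465) and rose by 0.45 in siCt cells (adjusted p = 0.005). The siCt call of NOP16 was lost without siCt R5020 replicate 1 or 2 or siCt EtOH replicate 1 or 2 (adjusted p from 0.066 to 0.106). With 1 array left out, the siCt count of 8 ran from 3 to 9, at 3 without siCt EtOH replicate 1, 4 without siCt R5020 replicate 1 and 5 without siCt R5020 replicate 3, and the siCHD8 count was 4 or 5. Without siCt EtOH replicate 3 it was 6, with a median of 0.33. The interaction of hormone and knockdown called none of the list. It called 0 of all 21214 probe sets, so it cannot tell whether the 2 kinds of cell differ for these genes.

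Of 12 partners and rivals of MYC, 0 were called higher and 1 lower in siCHD8 cells, and 1 higher and 2 lower in siCt cells. For all probe sets the share called was 11.5% in siCHD8 cells and 14.1% in siCt cells. MXD1, which competes with MYC for MAX, rose by 0.66 in siCt cells (limma adjusted p = 0.00393) and differed by 0.16 in siCHD8 cells (adjusted p = 0.581). MLXIP, a MLX partner that responds to glucose, was lower by a log2 difference of -0.78 in siCHD8 cells (adjusted p = 0.0184) and -0.70 in siCt cells (adjusted p = 0.0296). MXD4, another MAX partner, differed by -0.23 in siCHD8 cells (adjusted p = 0.437) and was lower in siCt cells by -0.57 (adjusted p = 0.0188). These lower calls were lost when some single arrays were left out. MLXIP had 6.43, 6.56 and 6.54 in siCt R5020 cells, against 6.91, 6.88 and 7.83 in siCt EtOH cells, and without EtOH replicate 3 its siCt difference was -0.38 (adjusted p = 0.0734). Its siCt call was also lost without any siCt R5020 replicate (0.0598 to 0.0963), and its siCHD8 call without siCHD8 R5020 replicate 1 or 2 or siCHD8 EtOH replicate 1 or 2 (0.0541 to 0.0768). The MXD4 call was lost without siCt EtOH replicate 3 (-0.44, adjusted p = 0.0865) or siCt R5020 replicate 2 (0.0701) or 3 (0.0757), and without siCt EtOH replicate 3 none of the 12 was called lower in siCt cells, where MXD1 stayed higher.

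None of the measured EGR genes, EGR1, EGR3 and EGR4, was called higher with R5020 at this time point. EGR1 (chr5:138465479-138469303), whose promoter holds the CArG boxes shown above, had 4.61, 4.33 and 4.67 in siCHD8 R5020 cells and 4.55, 4.52 and 4.79 in siCHD8 EtOH cells. In siCt cells it had 4.12, 4.36 and 4.07 with R5020 and 4.83, 4.55 and 4.65 with EtOH. The siCt arrays separated with R5020 lower, and the siCHD8 arrays overlapped. The log2 difference was -0.08 in siCHD8 cells (95% confidence interval -0.36 to 0.19, limma adjusted p = 0.797) and -0.49 in siCt cells (SE 0.13, adjusted p = 0.0191), where the signal with R5020 was 71.1% of that with EtOH. The siCt call was lost without R5020 replicate 1 (adjusted p = 0.0737) or 3 (0.0886) or EtOH replicate 1 (0.0832). EGR1 signal was low here, with condition means of 4.19 to 4.68 around 4.59, the median level of the probe sets tested. How much of it was background was not tested.

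EGR4, a family member best known from neurons and germ cells (chr2:73290929-73293548), had 4.07, 4.84 and 4.16 in siCHD8 R5020 cells and 4.14, 4.26 and 4.39 in siCHD8 EtOH cells. In siCt cells it had 3.72, 4.07 and 4.08 with R5020 and 4.57, 4.41 and 4.40 with EtOH. The siCt arrays again separated with R5020 lower, while siCHD8 R5020 replicate 2 stood well above its 2 replicates. The log2 difference was 0.09 in siCHD8 cells (SE 0.17, limma adjusted p = 0.835) and -0.50 in siCt cells (SE 0.17, adjusted p = 0.0664), and neither passed. Without siCHD8 R5020 replicate 2 the siCHD8 difference was -0.15 and the adjusted p of the siCt difference was 0.0153. EGR3, on chromosome 8, ranged from 3.38 to 3.80 in siCHD8 cells and from 3.32 to 3.66 in siCt cells, with the R5020 and EtOH arrays interleaved. Its log2 difference was -0.07 in siCHD8 cells (95% confidence interval -0.35 to 0.22) and -0.01 in siCt cells (-0.30 to 0.28). EGR1, EGR3 and EGR4 were the 3 genes of the 9 whose mean level lay below the median of the probe sets tested. How much of the EGR3 and EGR4 signal was background was not tested either.

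Of 7 measured regulators of the EGR genes and the serum response, 1 was called higher and 0 lower in siCHD8 cells, and 0 higher and 2 lower in siCt cells. Among all probe sets 11.5% were called in siCHD8 cells and 14.1% in siCt cells. SRF had 7.07, 7.10 and 6.87 in siCt R5020 cells, against 7.36, 7.35 and 7.83 in siCt EtOH cells, a log2 difference of -0.50 (limma adjusted p = 0.0151). In siCHD8 cells its difference was -0.17 (adjusted p = 0.493). NAB2 differed by -0.34 in siCHD8 cells (adjusted p = 0.103) and was lower in siCt cells by -0.45 (adjusted p = 0.0269). ELK1, the ETS partner of SRF, rose by 0.57 in siCHD8 cells (adjusted p = 0.0141) and differed by 0.24 in siCt cells (adjusted p = 0.29). Without siCt EtOH replicate 3, the highest of the SRF values, neither lower call was made: SRF differed by -0.34 (adjusted p = 0.0515) and NAB2 by -0.35 (adjusted p = 0.105). Both were also lost without siCt R5020 replicate 3 (0.0792 for SRF, 0.131 for NAB2), NAB2 without siCt R5020 replicate 2 (0.0506), and ELK1 without siCHD8 R5020 replicate 3 (0.45, adjusted p = 0.0843).

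The IER genes, 3 early response genes that share a name but not a protein family as a whole (IER2 and IER5 are related, IER3 is not), showed small differences. IER2 (chr19:13150411-13154911) had 4.73, 4.38 and 4.32 in siCHD8 R5020 cells and 5.03, 5.08 and 4.72 in siCHD8 EtOH cells. In siCt cells it had 4.79, 4.42 and 4.38 with R5020 and 4.92, 4.89 and 4.92 with EtOH. The siCHD8 arrays overlapped at a single pair of values and the siCt arrays did not overlap, with R5020 lower in each. The difference was -0.47 on the log2 scale in siCHD8 cells (SE 0.14, limma adjusted p = 0.0479) and -0.38 in siCt cells (SE 0.14, adjusted p = 0.0974). The siCHD8 call lay at the threshold and held in 9 of 21 alternatives, with adjusted p from 0.021 to 0.194. It was lost without siCHD8 R5020 replicate 2 or 3 (0.167 without replicate 2, 0.194 without 3), siCHD8 EtOH replicate 1 or 2 (0.124 without 1, 0.164 without 2), siCt R5020 replicate 2 or 3, or any siCt EtOH replicate (0.0534 to 0.0609). The siCt difference passed without siCt R5020 replicate 1 (0.043). IER2 signal was low too, with condition means of 4.48 to 4.94 near 4.59, the median level of the probe sets tested.

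IER3, a stress-inducible gene linked to cell survival (chr6:30743199-30744547), had 7.65, 7.53 and 7.64 in siCHD8 R5020 cells, against 7.43, 7.45 and 7.46 in siCHD8 EtOH cells. In siCt cells it had 7.66, 7.56 and 7.44 with R5020, against 7.81, 7.83 and 7.83 with EtOH. The R5020 arrays lay above EtOH in siCHD8 cells and below EtOH in siCt cells, an arrangement that 78 of 21214 probe sets (0.368%) shared, and 72 (0.339%) had the opposite one. Neither difference passed: it was 0.16 in siCHD8 cells (SE 0.10, limma adjusted p = 0.381) and -0.27 in siCt cells (SE 0.10, adjusted p = 0.0795). The other 2 IER3 probe sets hold the same 12 values as each other and gave 0.15 in siCHD8 cells (adjusted p = 0.399) and -0.30 in siCt cells (adjusted p = 0.0491). IER5, a partner of heat shock factor HSF1 (chr1:181088700-181092900), had 5.94, 6.02 and 5.92 in siCHD8 R5020 cells and 5.94, 5.77 and 6.03 in siCHD8 EtOH cells. Its values in siCt cells were 5.71, 5.81 and 5.79 with R5020 and 6.16, 5.96 and 6.00 with EtOH. The arrays overlapped in siCHD8 cells and separated with R5020 lower in siCt cells, with log2 differences of 0.04 (limma adjusted p = 0.876) in siCHD8 cells and -0.27 (adjusted p = 0.104) in siCt cells.

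**Figure D3:**
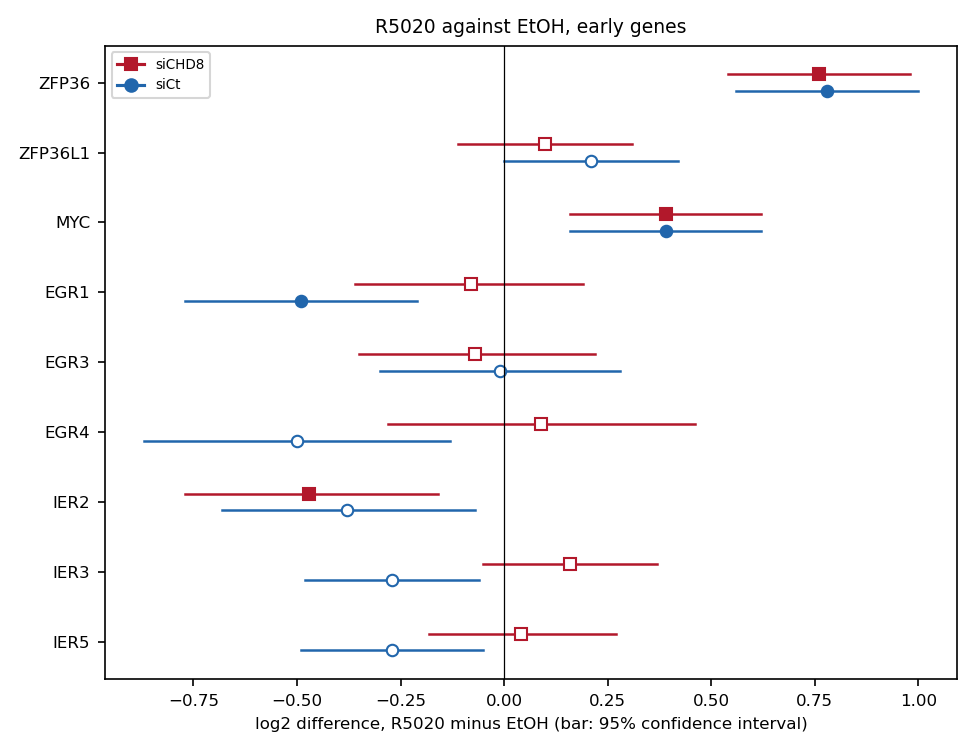
Log2 difference, R5020 minus EtOH (horizontal axis), of the 9 early genes in siCHD8 cells (squares) and siCt cells (circles), with 95% confidence intervals as bars; filled symbols passed an adjusted p of 0.05 in limma. ZFP36 (0.76 in siCHD8, 0.78 in siCt) and MYC (0.39 in each) lie right of 0 in both, while EGR1, EGR4, IER3 and IER5 lie left of 0 in siCt cells and near or right of it in siCHD8 cells.

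CHD8 depletion moved MYC alone among the 9 genes past the threshold, and only when both treatments were averaged. MYC was 5.82 to 5.98 in siCHD8 R5020 cells and 6.19 to 6.34 in siCt R5020 cells, and 5.46 to 5.63 in siCHD8 EtOH cells and 5.73 to 5.99 in siCt EtOH cells. Every siCHD8 array lay below every siCt array of the same treatment. The log2 difference was -0.35 with R5020 (SE 0.11, limma adjusted p = 0.171) and -0.36 with EtOH (SE 0.11, adjusted p = 0.18). Averaged over both treatments it was -0.35 (95% confidence interval -0.52 to -0.19, adjusted p = 0.029), 78.2% of the siCt signal. This call held in 12 of 20 alternatives, with adjusted p from 0.00933 to 0.0958, and was lost when any of 7 single arrays was left out: siCHD8 R5020 replicate 1, 2 or 3, siCHD8 EtOH replicate 3, siCt R5020 replicate 1 or 2, or siCt EtOH replicate 2 (adjusted p from 0.0575 to 0.0958). No gene of the 9 was called for the knockdown with R5020, where 0.189% of all probe sets were called, or with EtOH, where 0.292% were. At an unadjusted p under 0.05 the counts were 3 of 9 with R5020 and 2 of 9 with EtOH, against 13.9% of all probe sets with R5020 and 12.1% with EtOH. The siCHD8 arrays lay clear of the siCt arrays for 3 of 9 genes with R5020 and 5 of 9 with EtOH, against 27.6% of all probe sets with R5020 and 13.7% with EtOH. For the average over both treatments 1 of 9 was called lower and 0 higher, where 1.39% of all probe sets were called lower and 0.372% higher. None was called there at the stricter limits, which 0.189% of all probe sets passed.

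IER3 was lower in siCHD8 EtOH cells than in siCt EtOH cells without overlap (7.43 to 7.46 and 7.81 to 7.83), by a log2 difference of -0.38 (SE 0.10, limma adjusted p = 0.124). With R5020 the IER3 difference was 0.05 (95% confidence interval -0.16 to 0.26). The siCt EtOH arrays, which were within 0.02 of each other for IER3, enter both this comparison and the hormone comparison in siCt cells. ZFP36 was higher in siCHD8 cells with both treatments and without overlap, at 6.92 to 7.04 with R5020 against 6.69 to 6.89 in siCt cells, and at 6.10 to 6.34 with EtOH against 5.98 to 6.06 in siCt cells. The averaged difference of ZFP36 was 0.21 (SE 0.07, adjusted p = 0.175) and was not called. EGR1 with R5020 differed by 0.35 (SE 0.13, adjusted p = 0.255) and EGR4 with R5020 by 0.40 (SE 0.17, adjusted p = 0.327), with overlapping arrays in each. With EtOH the EGR4 arrays of siCHD8 cells lay below those of siCt cells (4.14 to 4.39 and 4.40 to 4.57), by a difference of -0.20 (adjusted p = 0.7), and EGR1 differed by -0.06. The remaining genes, EGR3, IER2, IER5 and ZFP36L1, differed by -0.13 to 0.19 with either treatment, and their adjusted p lay between 0.447 and 0.953.

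**Figure D4:**
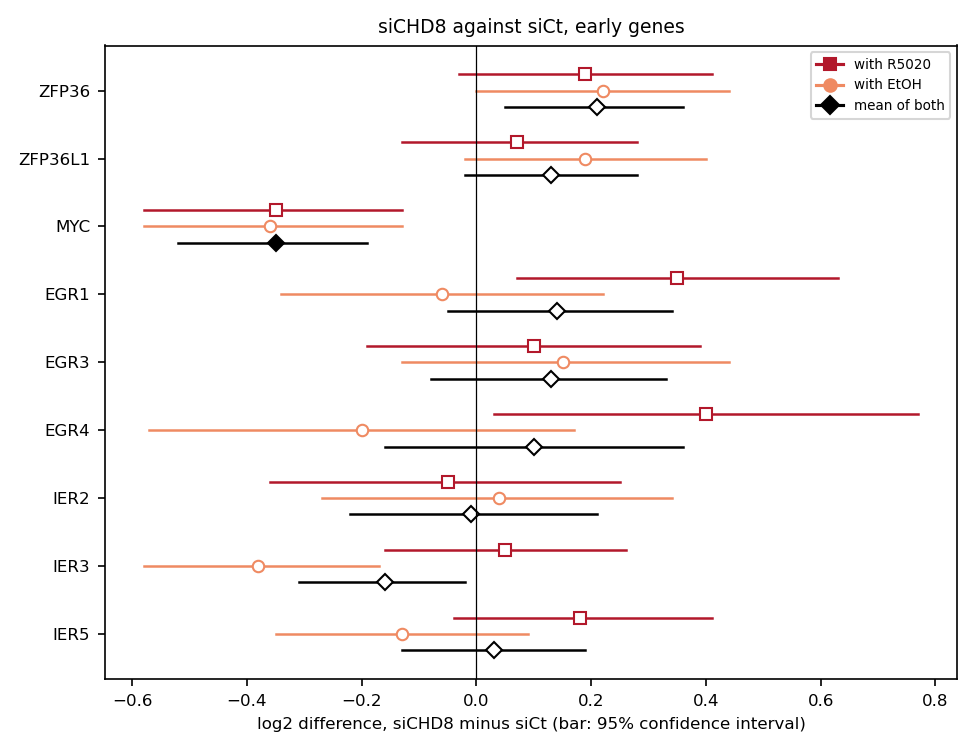
Log2 difference, siCHD8 minus siCt (horizontal axis), of the 9 early genes with R5020 (squares), with EtOH (circles) and averaged over both (diamonds), with 95% confidence intervals as bars; filled symbols passed an adjusted p of 0.05 in limma. The averaged MYC difference of -0.35 is the filled symbol, while EGR1 lies at 0.35 with R5020 and -0.06 with EtOH, and EGR4 at 0.40 with R5020 and -0.20 with EtOH.

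The difference between the R5020 responses of siCHD8 and siCt cells was tested directly as the interaction of hormone and knockdown. No gene of the 9 passed, as was so for every probe set of the table (0% of 21214, lowest limma adjusted p = 0.356), while 3 of 9 genes and 9.56% of all probe sets had an unadjusted p under 0.05. Those 3 were EGR4 (0.60, SE 0.24, limma adjusted p = 0.506), IER3 (0.43, SE 0.14, adjusted p = 0.49) and EGR1 (0.41, SE 0.18, adjusted p = 0.515), each with the higher R5020 minus EtOH difference in siCHD8 cells. Without siCHD8 R5020 replicate 2 the EGR4 value was 0.36. For ZFP36 the difference of responses was -0.02 (95% confidence interval -0.33 to 0.29) and for MYC 0.00 (-0.32 to 0.32). A difference of up to 0.32 either way thus stays within the interval for MYC, whose response was 0.39 in each kind of cell. In simulated data on the same number of probe sets, with 200 of them changed, the test found 0.5% of interaction differences of 0.5 and 84.5% of those of 1.

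Several other immediate early genes rose with R5020. Of 27 measured, 8 were called higher and 2 lower in siCHD8 cells, 8 were called higher and 2 lower in siCt cells, and the median log2 difference was 0.19 in siCHD8 cells and 0.09 in siCt cells. Over all probe sets 6.04% were called higher and 5.43% lower in siCHD8 cells, and 8.1% higher and 6% lower in siCt cells. This list, too, was chosen with earlier results of these data known. KLF4, a Krüppel-like transcription factor, rose by 1.86 in siCHD8 cells (limma adjusted p = 1.6e-07) and 2.08 in siCt cells (adjusted p = 4.35e-08). CSRNP1, a nuclear protein induced by AXIN1, rose by 1.35 in siCHD8 cells (adjusted p = 1.38e-06) and 1.39 in siCt cells (adjusted p = 9.46e-07). DUSP1, a phosphatase that switches off MAP kinases, rose by 1.07 in siCHD8 cells (adjusted p = 2.68e-05) and 1.32 in siCt cells (adjusted p = 2.66e-06). JUN, an AP-1 subunit, rose by 0.43 in siCHD8 cells (adjusted p = 0.0307) and 0.91 in siCt cells (adjusted p = 8.24e-05). The siCHD8 call of JUN was lost without siCHD8 R5020 replicate 1 or 2 or siCHD8 EtOH replicate 2 or 3 (adjusted p from 0.0587 to 0.157). FOS, classical partner of JUN, did not pass (adjusted p = 0.235 in siCHD8 cells and 0.0728 in siCt cells), with 4.12 to 4.20 in siCHD8 R5020 cells and 3.92 to 4.02 in siCHD8 EtOH cells, and 4.39 to 4.45 in siCt R5020 cells and 4.14 to 4.18 in siCt EtOH cells.

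Feedback genes of the ERK pathway moved in both directions. Of 11, 1 was called higher and 3 lower in siCHD8 cells, and 2 higher and 4 lower in siCt cells. With 1 array left out, the lower count ran from 1 to 3 in siCHD8 cells and from 2 to 4 in siCt cells. The higher count was 1 or 2 in siCHD8 cells and stayed at 2 in siCt cells. Only 4 of the 11 lay above 4.59, the median level of the probe sets tested, and SPRY2 had condition means of 3.16 to 4.08. Across all probe sets 6.04% were called higher and 5.43% lower in siCHD8 cells, and 8.1% higher and 6% lower in siCt cells. Earlier results of these data were known when this list was chosen. ERRFI1, an inhibitor of the EGF receptor, rose by 2.17 in siCHD8 cells (limma adjusted p = 1.34e-08) and 2.19 in siCt cells (adjusted p = 1.43e-08). SPRED1, an inhibitor of RAS signalling, differed by 0.38 in siCHD8 cells (adjusted p = 0.0571) and rose by 0.85 in siCt cells (adjusted p = 0.000161). The Sprouty genes SPRY2 and SPRY1, which also restrain receptor tyrosine kinase signalling, were lower. SPRY2 differed by -0.81 in siCHD8 cells (adjusted p = 0.000741) and -0.92 in siCt cells (adjusted p = 0.000192), and SPRY1 by -0.40 in siCHD8 cells (adjusted p = 0.0454) and -0.82 in siCt cells (adjusted p = 0.000253). The siCHD8 call of SPRY1 was lost without any 1 of 9 arrays, siCHD8 R5020 replicate 2, siCHD8 EtOH replicate 3 and siCt EtOH replicate 3 being the 3 without which it held (adjusted p from 0.0536 to 0.231 where lost). For the knockdown, none of the genes in these 6 lists was called with R5020 or with EtOH, or for the interaction. Such calls were rare in the whole table, at 0.189% of all probe sets with R5020, 0.292% with EtOH and 0% for the interaction. Averaged over both treatments, KLF4 and MXD1 were called higher and DUSP4, a MAP kinase phosphatase named after its value was seen, lower. There 0.372% of all probe sets were called higher and 1.39% lower. The KLF4 call was lost without siCHD8 R5020 replicate 3 (adjusted p = 0.0511) or siCt R5020 replicate 2 (0.0519), and that of MXD1 without any of 8 arrays (0.0662 to 0.113), all but siCHD8 R5020 replicate 3, siCHD8 EtOH replicates 1 and 2 and siCt EtOH replicate 2.

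**Figure D5:**
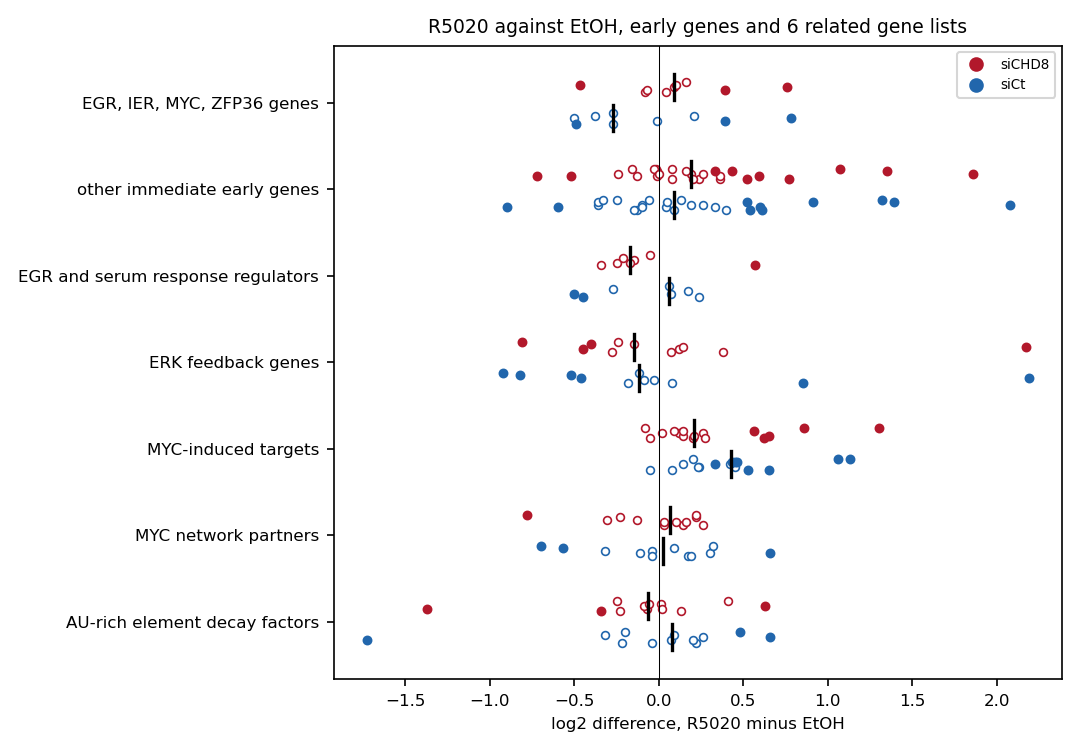
Log2 difference, R5020 minus EtOH (horizontal axis), of the 9 early genes and of the genes in 6 related lists, in siCHD8 cells (upper points of each row) and siCt cells (lower points); each point is a gene, filled where it passed an adjusted p of 0.05 in limma, and the vertical bar is the median of the list. The medians of the 9 genes are 0.09 in siCHD8 cells and -0.27 in siCt cells, and those of the MYC-induced targets 0.20 in siCHD8 cells and 0.43 in siCt cells.

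For each gene called in some comparison, the probe sets with the most similar profile over the 12 arrays were read off by Pearson's r, as a description. These values share the 4 condition means, so any pair of genes with a like hormone response scores high. ZFP36 was most like TMEM39A (r = 0.982), KLF4 (0.980) and PRKAB2 (0.977). MYC was most like C3orf70 (0.961), DLX3 (0.951) and FOS (0.951). The profiles most like EGR1 were those of EXD3 (0.938), LCE3C (0.917) and MESP2 (0.914), and those most like IER2 were SLTM (0.927), PCDHB9 (0.920) and TAF1B (0.914). Among the 9 genes themselves, r over the 12 arrays ran from -0.77 (IER2 with ZFP36) to 0.82 (ZFP36 with ZFP36L1), and 17 of 36 pairs were positive. Within conditions, after each condition's mean was taken off, ZFP36 and ZFP36L1 had r = 0.64 and IER2 and ZFP36 had 0.02. The 36 pairs then ran from -0.74 (IER5 with MYC) to 0.77 (EGR3 with MYC), and 20 were positive, so 0.64 does not set the ZFP36 pair apart.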

How the data were processed

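RNA from T47D-MTVL cells was measured on Affymetrix GeneChip Human Gene ST arrays, 12 in all. The table the authors deposited holds 1 log2 intensity for each probe set and array, made by RMA (background correction, quantile normalization, probe summary). Its software versions are not given in the sources used. The values were used as they stand, from all 12 columns. Of 33297 probe sets, 21214 carry at least 1 gene symbol and were tested, 19460 of them with exactly 1 symbol. Names come from the platform annotation, and 19429 matched RefSeq (GRCh38.p14) by Entrez ID with 0 symbols changed. Of those tested, 703 hold the same 12 values as another probe set.

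A mean per condition was fitted in R 4.3.3 by lmFit, contrasts.fit and eBayes of limma 3.58.1, with Benjamini-Hochberg adjustment over all probe sets tested and a call at an adjusted p under 0.05. Precision is limited by the number of arrays, with a median log2 SE of 0.133 between 2 conditions and 0.188 for the interaction. The study's methods give thresholds but no test, so limma was used. The members and gene lists were chosen with earlier results of these data known. Every member is described by its brightest probe set, and up to 4 genes of each other list by smallest adjusted p among those called. Lists are described by counts and medians with no set test. EGR2 is not analysed here.

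The fit was tested on simulated data: for R5020 against EtOH in siCt cells it found 15.5% of changes of 0.5 and 100% of changes of 1. There 200 of 21214 probe sets were changed, against 2992 called in the data for that comparison. With fewer changes the adjusted threshold is stricter, so these shares need not carry over to the data. The fit was repeated with each array left out, with array weights, with limma's trend and robust options, with only the conditions compared, and with the replicate number as a block. It was also repeated on median-centred or quantile-normalized values, over the whole table, without dim probe sets, and with a single probe set for each gene. Leaving out each array was extended to the other gene lists after the data were seen. Stricter limits (adjusted p under 0.01, fold over 1.5) were applied too. Python 3.11.15, pandas 2.3.3 and matplotlib 3.10.9 drew the figures and searched the promoters.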

Additional observations from a re-analysis of the deposited data

Results flagged for a closer look

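For IER3 the R5020 arrays lay above the EtOH arrays in siCHD8 cells (7.53 to 7.65 and 7.43 to 7.46). In siCt cells the R5020 arrays lay below the EtOH arrays (7.44 to 7.66 and 7.81 to 7.83). The difference of the responses was 0.43 on the log2 scale (SE 0.14) and did not pass adjustment over all probe sets (limma, adjusted p = 0.49). It lay between 0.37 and 0.48 with any 1 of the 12 arrays left out. The other 2 IER3 probe sets, which hold identical values, gave 0.46. Of all probe sets tested, 78 (0.368%) showed the same arrangement and 72 (0.339%) the opposite one.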

How the results depend on the processing

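Apart from the fits with 1 array left out, the number of the 9 genes called changed by over 1.5 times under 5 settings. With dim probe sets left out, which leaves 6 genes, the knockdown with EtOH had 1 call (IER3, limma adjusted p = 0.0446). With all probe sets tested, the averaged knockdown had 0 (MYC, 0.0643). With array weights, the knockdown with R5020 had 1 (MYC, 0.0354). With the compared conditions alone, R5020 in siCHD8 cells had 1, since MYC (0.0535) and IER2 (0.0811) were lost. At the stricter limits (fold over 1.5, adjusted p under 0.01), R5020 had 1 call in siCHD8 cells and 1 in siCt cells, both ZFP36, and the averaged knockdown 0. Leaving out 1 array gave 1 to 3 calls for R5020 in siCHD8 cells, 1 to 4 in siCt cells, 0 to 1 for the averaged knockdown and 0 for the others. IER2 in siCHD8 cells was also lost under median centring (0.0714) and with all probe sets (0.105). IER3 in siCt cells passed under quantile normalization (0.0159), with dim probe sets left out (0.0327) and with a trended and robust variance (0.047), and IER5 with dim probe sets left out (0.0488) and array weights (0.0477). EGR4 in siCt cells passed with the compared conditions alone (0.0302). Over all single values, 1022 kept direction and side of the threshold, 31 lost it, 12 gained it and 45 changed sign.

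None of the values that changed sign was called. Under median centring EGR3 with R5020 in siCt cells was 0.05, the knockdown with R5020 was -0.03 for IER3 and -0.01 for ZFP36L1, the interaction of MYC was -0.06 and the averaged knockdown of IER5 was -0.02. Quantile normalization gave 0.07 for EGR3 with R5020 in siCt cells and 0.02 for the interaction of ZFP36. Array weights gave 0.02 for EGR3 in siCt cells, -0.08 for the interaction of MYC and -0.00 for the averaged knockdown of IER5. With 1 array left out, R5020 in siCHD8 cells ran from -0.15 to 0.02 for EGR1, -0.19 to 0.02 for EGR3, -0.15 to 0.24 for EGR4 and -0.03 to 0.10 for IER5, and EGR3 in siCt cells from -0.09 to 0.08. The knockdown with EtOH ran from -0.15 to 0.02 for EGR1 and -0.03 to 0.15 for IER2, and with R5020 from -0.18 to 0.08 for IER2 and -0.00 to 0.11 for IER3. The averaged knockdown ran from -0.02 to 0.17 for EGR4, -0.07 to 0.06 for IER2 and -0.00 to 0.06 for IER5. The interaction ran from -0.17 to 0.03 for EGR3, -0.22 to 0.04 for IER2, -0.06 to 0.07 for MYC and -0.09 to 0.03 for ZFP36. The cause of these changes was not tested.

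Same-numbered arrays of different conditions correlated at -0.25 to 0.20 (median -0.05) in their deviations from the condition means. Differently numbered ones correlated at -0.23 to 0.25 (median 0.02). No pairing by replicate number was seen in this, but 3 arrays a condition cannot exclude one. With the replicate number as a block the counts of genes called were 3 for R5020 in siCHD8 cells, 3 in siCt cells, 0 for either single-treatment knockdown, 0 for the interaction and 1 for the averaged knockdown, as without it. Over all probe sets the block moved the calls to 2245 from 2432 in siCHD8 cells, to 2723 from 2992 in siCt cells, to 5 from 40 for the knockdown with R5020, to 20 from 62 with EtOH and to 231 from 373 for the average. With 3 arrays a condition, the R5020 differences called among the 9 genes were 0.39 or more in size on the log2 scale, and 1 of -0.50 (EGR4 in siCt cells) was not called.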
